A study of Mus musculus with 14 samples.

Results

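The interaction between loss of the DNA methyltransferases and a PRC1 inhibitor was examined in mouse embryonic stem cells (mESC). It was taken over the 8 libraries of the first of 2 experiments, out of 14 libraries in the series. For each gene, the change with the inhibitor in wild-type cells was subtracted from the change with the inhibitor in knockout cells. The subtraction was made on the log2 scale, where equal folds give 0, and in CPM (counts scaled for library size), where equal gains give 0. A positive value therefore stands for a larger rise, or a smaller fall, in the knockout cells. All cells had the background labelled J1 129S4/SvJae. The 4 groups, of 2 libraries each, were Wild type cells with the vehicle DMSO, Wild type cells with PRT4165, Dnmt-TKO (triple knockout) cells with DMSO, and Dnmt-TKO cells with PRT4165. For PRT4165, dose and length of treatment were not given in the sources used here. The labels name 1 line per genotype, so a difference between the lines that has nothing to do with the knockout cannot be told apart from the genotype. Nothing in the labels states that the libraries of a group came from separate cultures, and p-values then cover the spread between these libraries, which may be technical. In the second experiment no treatment is named. Its Wild type and Dnmt-TKO libraries gave the difference in level between the lines from RNA that the interaction did not use, and its remaining group, Tet1-KO Dnmt-TKO, entered only the estimate of the spread.

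DNA methyltransferases place methyl groups on cytosines of CpG dinucleotides, and a CpG-rich promoter that is methylated is usually silent. Dnmt1 copies the mark after replication, while Dnmt3a and Dnmt3b place it anew. PRC1 is a polycomb complex whose ligase subunits Ring1 and Rnf2 attach ubiquitin to histone H2A, and in embryonic stem cells it holds developmental and many germline genes at a low level. PRT4165 is a small molecule that inhibits this ligase activity. Germline genes such as Dazl, an RNA-binding protein of germ cells, carry both kinds of repression in these cells. Where the knockout alone already raises a gene, an equal fold and an equal gain with the inhibitor are different outcomes, and the starting level decides which scale gives which sign.

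The 8 libraries held between 25588815 and 37399837 counts. Dnmt1 was at 424 and 434 CPM in the wild-type vehicle libraries and 128 and 128 CPM in the TKO vehicle libraries. Dnmt3b was at 179 and 197 against 41.2 and 44 CPM, and Dnmt3a, which shares exon sequence with its antisense transcript Dnmt3aos, at 103 and 99.1 against 41 and 41.9 CPM. The counts cover whole genes, so reads outside a deleted part remain in them. The 10 defining markers of embryonic stem cells summed to 6122 to 6217 CPM in wild type with vehicle, 5145 to 5361 with the inhibitor, 4665 to 4674 in TKO cells with vehicle and 3448 to 3626 with the inhibitor. None of the 10 was at 0. The 8 fibroblast markers, which would mark feeder cells, summed to between 9.88 and 14.6 CPM in the 4 groups. Thy1 and Pdgfrb gave most of that sum and were lower in TKO than in wild-type cells with vehicle. Col3a1, Postn, Lum and Fap were at 0 in wild type with vehicle. Of these, Col3a1 was at 0.842 and 1.17 CPM and Postn at 0.976 and 1.21 CPM in TKO cells with vehicle. With the inhibitor they were at 1.23 and 1.55 and at 1.86 and 1.55 CPM there. Col1a2 and Lum were also higher in TKO cells with vehicle, while Col1a1 and Fap did not separate the lines.

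The promoters of 5 germline genes are shown because the scales gave different answers for Dazl, Tuba3b, Taf7l and Tex101, while Sycp3 was called on neither. Each sequence is the 250 bases before the start of the RefSeq transcript in GRCm38.p6, printed 5′ to 3′ in the direction of the gene, with every CpG in capitals.
Dazl, chr17:50293621-50293870, minus strand: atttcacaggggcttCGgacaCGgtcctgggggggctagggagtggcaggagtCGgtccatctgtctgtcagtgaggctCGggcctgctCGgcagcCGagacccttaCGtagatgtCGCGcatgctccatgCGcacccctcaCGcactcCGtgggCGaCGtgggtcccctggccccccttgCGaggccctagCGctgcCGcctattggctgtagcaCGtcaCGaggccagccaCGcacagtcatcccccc
Tuba3b, chr6:145615713-145615962, plus strand: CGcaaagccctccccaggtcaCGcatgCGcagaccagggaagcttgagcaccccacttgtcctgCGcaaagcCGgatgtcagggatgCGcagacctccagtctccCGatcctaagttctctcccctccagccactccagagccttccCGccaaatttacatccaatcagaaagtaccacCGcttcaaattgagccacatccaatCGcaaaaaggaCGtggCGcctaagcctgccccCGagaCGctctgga
Taf7l, chrX:134476491-134476740, minus strand: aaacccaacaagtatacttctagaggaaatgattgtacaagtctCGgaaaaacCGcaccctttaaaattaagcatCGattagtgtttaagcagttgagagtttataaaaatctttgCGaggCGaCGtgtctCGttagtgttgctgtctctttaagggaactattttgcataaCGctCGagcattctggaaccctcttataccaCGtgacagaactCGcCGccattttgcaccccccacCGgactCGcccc
Tex101, chr7:24672051-24672300, minus strand: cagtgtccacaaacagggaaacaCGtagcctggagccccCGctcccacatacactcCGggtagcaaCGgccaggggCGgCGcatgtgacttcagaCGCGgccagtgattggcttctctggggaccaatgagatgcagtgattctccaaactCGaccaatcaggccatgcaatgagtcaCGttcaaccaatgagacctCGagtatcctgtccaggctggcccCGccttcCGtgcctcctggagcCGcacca
Sycp3, chr10:88459337-88459586, plus strand: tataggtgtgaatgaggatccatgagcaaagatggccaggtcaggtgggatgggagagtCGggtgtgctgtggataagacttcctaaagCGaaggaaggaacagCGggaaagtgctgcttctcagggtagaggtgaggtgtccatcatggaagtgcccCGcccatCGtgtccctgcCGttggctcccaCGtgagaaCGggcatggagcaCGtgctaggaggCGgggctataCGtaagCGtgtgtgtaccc
The Dazl promoter held 20 CpGs, and 82.3% of the 27025 promoters in the RefSeq table held fewer. The Tuba3b, Taf7l and Tex101 promoters held 14 CpGs each and the Sycp3 promoter 12, against a median of 6.0 over all promoters. The letters CACGTG, which read the same on both strands and form the E-box bound by MAX and MGA, were found once in the Taf7l promoter, starting at position -49 from the transcript start. They were found at 2 positions in the Sycp3 promoter, the first at -64, and 6.05% of all promoters held them. A match of letters is a description of the sequence. No methylation was measured in these libraries.

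With the inhibitor, 3171 of the 16711 genes tested rose in wild type (19.0%) and 3120 fell (18.7%), and 3324 rose (19.9%) and 3272 fell (19.6%) in TKO cells. The responses of the lines were largely alike in direction. In both lines 2038 genes rose and 2080 fell, while 85 genes were called in opposite directions, 41 of them up in wild type and down in TKO cells. Over the 12083 genes at 1 CPM or more in every group, the log2 changes of the lines had a Pearson r of 0.77 and a Spearman rho of 0.71, as a description across genes that share their libraries. The slope of the TKO change on the wild-type change was 0.75. The standard deviation of the log2 change over these genes was 0.36 in wild type and 0.35 in TKO cells. With such like spreads the slope follows from r, and by itself it does not measure a weaker response in TKO cells. Over all 16711 genes tested, those below 1 CPM included, the standard deviation was 0.93 in wild type and 0.74 in TKO cells. Calls here and below are genes with an adjusted p under 0.05 in edgeR's quasi-likelihood test with Benjamini-Hochberg adjustment.

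**Figure D1:**
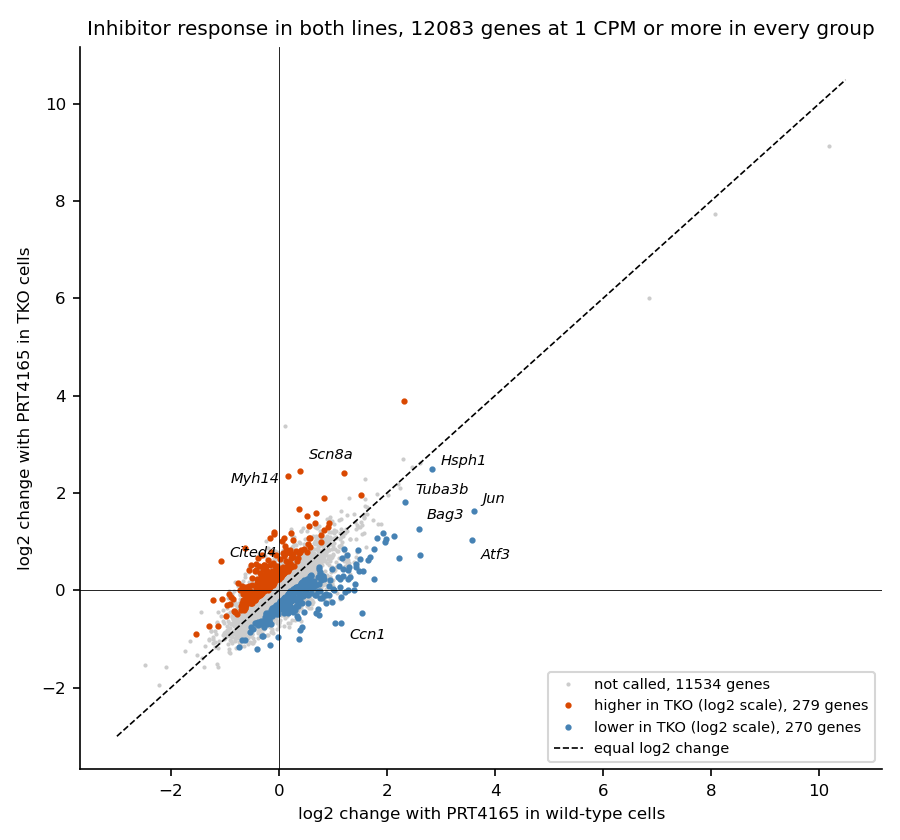
Each point is 1 of 12083 genes, with its log2 change with PRT4165 in wild-type cells on the x axis and in TKO cells on the y axis. Orange points (279 genes) were called higher and blue points (270 genes) lower in TKO cells on the log2 scale, and the dashed line marks an equal log2 change in both lines.

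In folds, 650 genes differed in their response between the lines, 3.89% of the genes tested, with 295 higher in TKO cells (1.77%) and 355 lower (2.12%) on the log2 scale. A further 2324 genes had an unadjusted p under 0.05. The median absolute size among the 650 was 0.46, and only 32 of the higher and 116 of the lower genes passed a 2-fold difference. On the linear scale 1391 genes differed (8.32%), with 869 higher (5.20%) and 522 lower (3.12%). The sign of all 650 log2 calls was the same in all 16 choices of 1 library per group, and that of 1390 of the 1391 linear calls. These choices reuse the libraries that gave the calls, so they are a description and no separate support. The scales shared 458 calls of the same sign. Another 179 genes were called on the log2 scale alone, 920 on the linear scale alone, and 13 were lower on the log2 scale but higher on the linear scale. The reverse combination had 0 genes.

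These counts moved with single libraries and with the tool. DESeq2 called 197 higher and 218 lower on the log2 scale. Without wild-type vehicle replicates 1 and 2 the log2 counts rose to 421 and 380 higher and 492 and 453 lower, and the linear counts to 927 and 921 higher and 716 and 730 lower. Leaving out any 1 of the other 6 libraries lowered all 4 counts. The 295 genes higher on the log2 scale became 151 without wild-type inhibitor replicate 2, 131 and 118 without TKO vehicle replicates 1 and 2, and 148 without either TKO inhibitor library. The 355 lower genes became 231, 212, 186 and 229 without wild-type inhibitor replicate 2, TKO vehicle replicates 1 and 2 and TKO inhibitor replicate 2. The 869 higher linear calls became 511, 455, 488 and 421 without TKO vehicle replicates 1 and 2 and TKO inhibitor replicates 1 and 2. The 522 lower linear calls became 252, 253 and 340 without TKO vehicle replicates 1 and 2 and TKO inhibitor replicate 2.

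The called genes can be split by what each line did. Of the 295 genes higher in TKO cells on the log2 scale, 90 fell in wild type without a call in TKO cells, 82 rose in TKO cells without a call in wild type, 46 rose in both, 44 fell in wild type and rose in TKO cells, and 32 fell in both. Of the 355 lower genes, 121 rose in wild type without a call in TKO cells, 93 rose in both, 64 fell in TKO cells without a call in wild type, 41 rose in wild type and fell in TKO cells, and 36 fell in both. Among the 869 genes with the higher linear change, 250 rose in TKO cells without a call in wild type, 244 rose in both, 187 fell in wild type without a call in TKO cells and 137 fell in both. Among the 522 with the lower linear change, 202 fell in TKO cells without a call in wild type, 107 rose in wild type without a call in TKO cells, 99 fell in both and 73 rose in both.

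The 13 genes with opposite signs on the 2 scales rose with the inhibitor in both lines, by a smaller fold but by more CPM in TKO cells. Hmox1, the haem oxygenase induced by oxidative stress, was at 73.7 and 75.5 CPM in the wild-type vehicle libraries, 299 and 292 with the inhibitor, 347 and 334 in the TKO vehicle libraries and 681 and 727 with the inhibitor. No libraries of different groups overlapped, and the TKO vehicle level was above the wild-type inhibitor level. The log2 change was 1.98 in wild type and 1.05 in TKO cells, an interaction of -0.94 ± 0.07 (SE, adjusted p = 1.32e-09). In CPM the interaction was 143 ± 18.4 (SE, adjusted p = 1.10e-05). Had TKO cells gained as many CPM as wild type, their level would have been 561 CPM, and with the same fold 1347 CPM. The mean of 704 CPM lay between these values.

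Tfap2c, an AP-2 transcription factor of trophoblast and of the germ cell lineage, was at 12.4 and 11.1 CPM in the wild-type vehicle libraries, 30.4 and 32.7 with the inhibitor, 100.4 and 98.6 in the TKO vehicle libraries and 139 and 138 with the inhibitor. Its interaction was -0.95 ± 0.09 on the log2 scale (adjusted p = 1.03e-07) and 19.2 ± 4.16 CPM (adjusted p = 0.00421). The linear call was lost without TKO vehicle replicate 2 or either TKO inhibitor library, with an adjusted p of up to 0.0944. Scml2, an X-linked polycomb protein of germ cells, went from 1.5 and 1.15 to 3.74 and 3.55 CPM in wild type and from 36.2 and 36.2 to 45.9 and 49.2 CPM in TKO cells. It had the lower fold (-1.08 ± 0.19, log2) and the larger gain (9.02 ± 1.88 CPM) in TKO cells, with a linear adjusted p of 0.0922 without TKO inhibitor replicate 2. Galnt6, which adds the first sugar of O-linked chains, went from 1.14 and 0.995 to 4.68 and 5.38 CPM in wild type and from 23 and 25.3 to 36 and 40.5 CPM in TKO cells. Its interaction was -1.56 ± 0.22 (log2) and 10.2 ± 1.72 CPM. Some of its exon sequence is shared with Galnt6os.

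The other such genes with a symbol were Sdk2, Gadd45g, Dusp8, Klhl13, Gm364 and the germline genes Taf7l and Tuba3b, described with their group, and 2 more had no symbol in the annotation used. Sdk2, a cell adhesion protein, had an interaction of -1.08 ± 0.24 (log2) and 4.5 ± 0.835 CPM. Gadd45g, a stress-induced gene, was at -0.98 ± 0.24 (log2) and 9.56 ± 1.36 CPM, and its log2 call was lost without wild-type vehicle replicate 2, wild-type inhibitor replicate 1, TKO vehicle replicate 2 or TKO inhibitor replicate 1 (adjusted p up to 0.173). Dusp8, a phosphatase of MAP kinases that shares exon sequence with Gm32786, was at -2.54 ± 0.46 (log2) and 3.48 ± 0.884 CPM, with a linear adjusted p of up to 0.142 without TKO vehicle replicate 2 or either TKO inhibitor library. Klhl13, an X-linked adaptor of a ubiquitin ligase that shares exon sequence with Gm14523, was at 17.2 and 15.9 CPM in wild type and 465 and 463 CPM in TKO cells with vehicle. Its interaction was -0.34 ± 0.08 (log2) and 60.2 ± 15.3 CPM, and each of the 4 TKO libraries took away a call when left out (adjusted p up to 0.168), as did the second wild-type vehicle or inhibitor library on the log2 scale. The 13 genes were all called higher in TKO than in wild-type cells in the second experiment. A higher start in TKO cells is required by the arithmetic of opposite signs for a gene that rose in both lines. The 13 became 7 without wild-type inhibitor replicate 2, 8 and 4 without TKO vehicle replicates 1 and 2, and 4 and 7 without TKO inhibitor replicates 1 and 2.

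**Figure D2:**
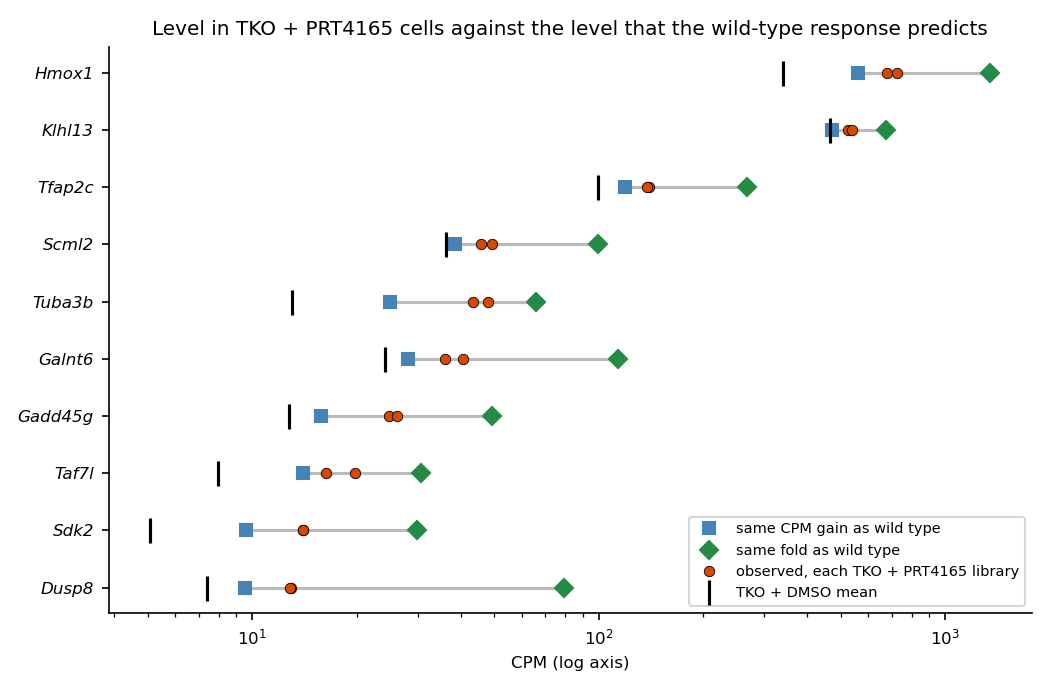
For 10 genes with opposite signs on the 2 scales, the log x axis gives CPM in TKO cells with PRT4165 (orange, each library) beside the level at the same CPM gain as wild type (blue squares) and at the same fold (green diamonds). The black ticks are the TKO vehicle means, and every orange point lies between the square and the diamond.

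Germline genes gained more CPM in TKO cells in several cases while the difference in folds did not pass or was in favour of wild type. Of 40 tested members of a list of germline genes reported to be kept silent by promoter methylation, 0 were higher and 3 were lower on the log2 scale, and 8 were higher and 3 lower on the linear scale. Over all genes the shares were 1.77% and 2.12%, and 5.20% and 3.12%. The list's median log2 interaction was 0.06, against -0.01 over all genes tested. In wild type 15 members rose and in TKO cells 19, against 19.0% and 19.9% of all genes. DESeq2 called 0 of the 40 on the log2 scale, and 15 had an unadjusted p under 0.05 in edgeR. Tuba3b, a testis form of alpha-tubulin, was at 2.86 and 3.08 CPM in the wild-type vehicle libraries, 14.6 and 15.3 with the inhibitor, 13.2 and 12.9 in the TKO vehicle libraries and 43.4 and 47.9 with the inhibitor. The gain in TKO cells was larger by 20.6 ± 1.69 CPM (adjusted p = 1.38e-08), and the log2 interaction was -0.52 ± 0.14 (adjusted p = 0.0372). That log2 call was lost without any 1 library other than TKO inhibitor replicate 2 (adjusted p up to 0.106). Tuba3b has a near-identical copy, Tuba3a, and reads may be split between them. Taf7l, a germ cell subunit of TFIID, went from 2 and 2.24 to 7.27 and 9.09 CPM in wild type and from 8.21 and 7.73 to 16.4 and 19.7 CPM in TKO cells. Its interaction was -0.75 ± 0.21 (log2, adjusted p = 0.0367) and 4.08 ± 1.16 CPM (adjusted p = 0.0283). Neither call was stable, and limma on linear CPM did not make the linear call. The log2 call was lost without wild-type vehicle replicate 1, wild-type inhibitor replicate 2, TKO vehicle replicate 1 or 2, or TKO inhibitor replicate 1 (adjusted p up to 0.149). The linear call was lost without wild-type inhibitor replicate 1, TKO vehicle replicate 1 or 2, or TKO inhibitor replicate 2 (adjusted p up to 0.357).

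Dazl was at 9.97 and 8.58 CPM in the wild-type vehicle libraries, 15.4 and 15.6 with the inhibitor, 89.4 and 85.2 in the TKO vehicle libraries and 115 and 119 with the inhibitor. It rose in both lines, and its levels did not overlap between the lines. The interaction was -0.32 ± 0.10 on the log2 scale, which did not pass the test (adjusted p = 0.0652), and 23.6 ± 3.68 CPM, which did (adjusted p = 1.25e-04). Tex101, a surface protein of germ cells, went from 0.714 and 0.684 to 1.63 and 1.1 CPM in wild type and from 3.94 and 4.29 to 9.83 and 11.6 CPM in TKO cells, with a linear interaction of 5.89 ± 0.729 CPM (adjusted p = 6.37e-06) and 0.38 ± 0.32 on the log2 scale (adjusted p = 0.6). Tdrd9, a helicase of the piRNA pathway, went from 1.07 and 0.777 to 1.77 and 1.59 CPM in wild type and from 1.78 and 1.77 to 6.05 and 10 CPM in TKO cells and gained 5.42 ± 0.735 CPM more in TKO cells (adjusted p = 2.19e-05). Unlike Dazl, it was not called different between the lines in the second experiment. Sycp3, a component of the meiotic chromosome axis that shares exon sequence with Chpt1, went from 2.11 and 2.21 to 6.19 and 6.85 CPM in wild type and from 1.78 and 1.61 to 6.66 and 5.84 CPM in TKO cells. It passed on neither scale (0.30 ± 0.24, log2; 0.241 ± 0.627 CPM). Mael, a piRNA pathway protein, did not pass either (0.28 ± 0.11, log2; 0.862 ± 1.95 CPM).

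Other germline genes fell in TKO cells or rose there by the smaller fold. Sycp1, the transverse filament protein of the synaptonemal complex, went from 5.57 and 5.5 to 4.99 and 5.3 CPM in wild type and from 14.2 and 13.6 to 8.77 and 9.57 CPM in TKO cells, a linear interaction of -4.32 ± 0.913 CPM (adjusted p = 0.00355). Stra8, the retinoic acid target needed for meiotic entry, had -13.9 ± 3.88 CPM (adjusted p = 0.0255), a call that did not hold without wild-type inhibitor replicate 1, TKO vehicle replicate 1 or 2, or TKO inhibitor replicate 2 (adjusted p up to 0.229). The linear call of Stra8 was not made by limma on linear CPM either. Smc1b, the meiotic cohesin subunit, was lower on the log2 scale (-0.53 ± 0.14, adjusted p = 0.0356). It lost that call without wild-type vehicle replicate 2, wild-type inhibitor replicate 1, TKO vehicle replicate 1 or 2, or TKO inhibitor replicate 1 (adjusted p up to 0.257). Over all genes 3.89% were called on the log2 scale and 8.32% on the linear scale, so lists of this size would hold few calls. Of 24 other meiotic genes, edgeR called 0 on the log2 scale (2 at an unadjusted p under 0.05, and 0 by DESeq2) and 1 on the linear scale. Some piRNA pathway genes, Tdrd9 and Mael among them, were counted in the germline list above. Of 16 others edgeR called 0 on the log2 scale (0 unadjusted, and 0 by DESeq2) and 1 on the linear scale. The former was Tex12, a synaptonemal complex protein, which was higher. The latter was the Tudor domain gene Tdrd12, which went from 8.72 and 7.9 to 7.56 and 8.44 CPM in wild type and from 69.1 and 68.4 to 60 and 58.6 CPM in TKO cells, a linear interaction of -9.13 ± 2.46 CPM (adjusted p = 0.0211), lost without either TKO vehicle library or TKO inhibitor replicate 2 (adjusted p up to 0.129).

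X-linked germline and cancer-testis genes had 29 members tested, of which 2 were lower on the log2 scale, and 3 were higher and 4 lower on the linear scale. The shares over all genes were 2.12% lower on the log2 scale, and 5.20% higher and 3.12% lower on the linear scale. Nxf2, an RNA export factor of the testis, was at 0.143 and 0.218 CPM in the wild-type vehicle libraries, 1.2 and 1.26 with the inhibitor, 1.92 and 2.24 in the TKO vehicle libraries and 28.3 and 33.8 with the inhibitor. The TKO libraries with the inhibitor stood far above all others, and the gain was larger in TKO cells by 27.9 ± 1.37 CPM (adjusted p = 1.62e-12). The log2 interaction was 1.18 ± 0.50 (adjusted p = 0.258). Rhox9, a homeobox gene of the X-linked reproductive cluster, went from 2.07 and 1.71 to 2.14 and 1.92 CPM in wild type and from 58.5 and 54.5 to 78 and 80.9 CPM in TKO cells, a linear interaction of 22.8 ± 2.62 CPM (adjusted p = 2.49e-06). Rhox6 of the same cluster had 14.1 ± 2.97 CPM, a call lost without TKO vehicle replicate 2 or TKO inhibitor replicate 2 (adjusted p up to 0.0973). Rhox1 and the ubiquitin protease Usp26 were lower on the log2 scale, at -2.11 ± 0.55 and -1.63 ± 0.41. Both rose in wild type from a vehicle level below 1 CPM and were not called in TKO cells. The Rhox1 call was lost without wild-type vehicle replicate 2 or inhibitor replicate 1, and that of Usp26 without wild-type vehicle or inhibitor replicate 2 (adjusted p up to 0.144 and 0.102). Rhox genes are close copies of one another, and counts may be split among them.

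Of 13 tested genes of the 2-cell embryo, 8 fell and 1 rose with the inhibitor in TKO cells, while 0 fell and 2 rose in wild type, and the linear interaction was lower for 7 and higher for 1 (Usp17le). Over all genes 19.6% fell and 19.9% rose in TKO cells, and 18.7% fell and 19.0% rose in wild type. The linear interaction was lower for 3.12% of all genes and higher for 5.20%. The median log2 interaction of the 13 was -1.49, with 2 calls, both lower (Sp110 and Tdpoz4, the latter with 2 counts in wild type with vehicle). Together the 13 summed to only 1.96 and 1.37 CPM in wild type with vehicle and 2.6 and 3.22 with the inhibitor. The wild-type folds behind that median therefore rest on few counts. DESeq2 called 1 of the 13 on the log2 scale. The log2 call of Tdpoz4 was lost with DESeq2 and without any 1 library other than TKO vehicle replicate 2 (adjusted p up to 0.116). Zscan4d, a telomere-associated zinc finger gene of the 2-cell stage, was at 0.357 and 0.0622 CPM in the wild-type vehicle libraries, 0.228 and 0.326 with the inhibitor, 16.2 and 14.7 in the TKO vehicle libraries and 7.45 and 9.14 with the inhibitor. It was below 1 CPM in all wild-type libraries, so that the difference of -7.25 ± 1.06 CPM (adjusted p = 6.07e-05) came from the fall in TKO cells. Zscan4c and Zscan4f had linear interactions of -6.69 ± 1.11 and -4.86 ± 0.626 CPM. The Zscan4 genes are near-identical copies, and their counts are not independent.

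Imprinted genes, which are expressed from 1 parental allele, had 55 members tested. On the log2 scale 6 were higher and 5 lower, against 1.77% and 2.12% of all genes. On the linear scale 10 were higher and 4 lower, against 5.20% and 3.12%. The retrotransposon-derived gene Peg10 was at 280.0 and 257 CPM in the wild-type vehicle libraries, 235 and 213 with the inhibitor, 1639 and 1589 in the TKO vehicle libraries and 2171 and 2119 with the inhibitor. It fell in wild type (log2 change -0.26) and rose in TKO cells (0.41), an interaction of 0.67 ± 0.07 (adjusted p = 1.72e-06) and 576 ± 66.5 CPM. Cdkn1c, an inhibitor of cyclin-dependent kinases that shares exon sequence with Gm44732, also changed in opposite directions, from 101 and 93.3 to 89.8 and 87.4 CPM in wild type and from 77.6 and 77.2 to 96.9 and 94 CPM in TKO cells. Its interaction was 0.43 ± 0.07 (log2, adjusted p = 4.42e-04) and 26.3 ± 4.32 CPM. Peg3 fell in wild type and was not called in TKO cells, where it lay between 304 and 331 CPM. Its interaction was 0.55 ± 0.09 (log2) and 3.5 ± 10.9 CPM, the latter not called. H19, a maternally expressed noncoding RNA, was at 0.536 and 0.56 CPM in wild type with vehicle and 0.742 and 0.571 with the inhibitor, and went from 1428 and 1367 to 1829 and 1821 CPM in TKO cells. Its linear interaction of 427 ± 49.1 CPM (adjusted p = 2.47e-06) came from TKO cells, where the gene was called and wild type was not, and the log2 value was 0.10 ± 0.30 (adjusted p = 0.928). Meg3, also maternally expressed, rose by the smaller fold in TKO cells (-0.55 ± 0.10, adjusted p = 0.00127). H19 and Meg3 share exon sequence with microRNA and other transcripts.

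**Figure D3:**
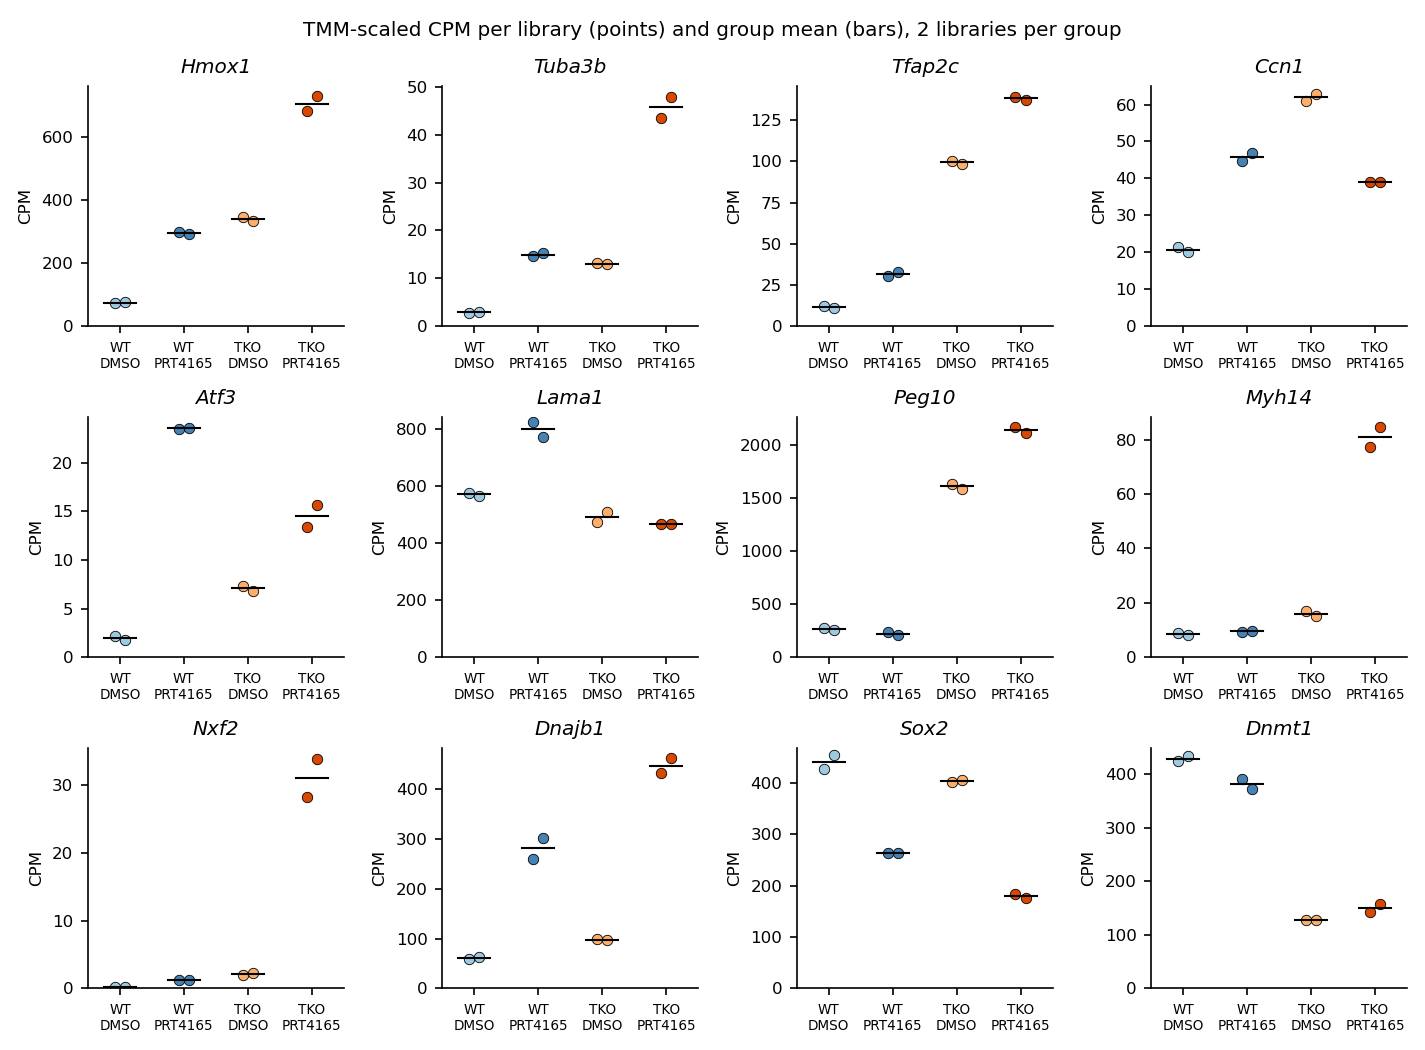
CPM of each library (points) and the mean of its group (bars) for 12 genes, with the 4 groups on the x axis and a y axis that starts at 0. Hmox1, Tuba3b and Tfap2c gained more CPM in TKO cells, Ccn1 and Peg10 changed in opposite directions in the lines, and Myh14 and Nxf2 rose mainly in TKO cells.

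Most heat shock genes rose in both lines, and 5 of them rose by the smaller fold in TKO cells. Among 34 heat shock chaperones and co-chaperones, 30 rose in wild type and 26 in TKO cells, against 19.0% and 19.9% of all genes, while 0 fell in either. On the log2 scale 5 had a smaller rise in TKO cells and 0 a larger one, with a list median of -0.05. Lower and higher calls made up 2.12% and 1.77% of all genes on that scale. The linear scale called 5 of the 34 lower and 1 higher, against 3.12% and 5.20% of all genes. Serpinh1, the collagen chaperone of the endoplasmic reticulum, was at 128 and 127 CPM in the wild-type vehicle libraries, 283 and 297 with the inhibitor, 115 and 118 in the TKO vehicle libraries and 155 and 158 with the inhibitor. The wild-type inhibitor libraries stood above all others, and the interaction was -0.76 ± 0.06 (log2, adjusted p = 2.21e-08) and -122 ± 7.98 CPM (adjusted p = 3.40e-10). Bag3, a co-chaperone of Hsp70, went from 11.9 and 13.6 to 72.7 and 81.1 CPM in wild type and from 49.2 and 48.6 to 110.1 and 124 CPM in TKO cells. Its log2 interaction was -1.32 ± 0.10 (adjusted p = 6.26e-09), but the difference in gains did not pass (4.34 ± 4.44 CPM, adjusted p = 0.63). Hspb8 and Hspa4l followed the same form, at -1.01 ± 0.16 and -0.92 ± 0.16 on the log2 scale and 1.01 ± 1.57 and 2.89 ± 1.52 CPM, neither called on the linear scale. Dnajb1, a co-chaperone of Hsp70, was the opposite case. It went from 59.2 and 62.5 to 260.0 and 302 CPM in wild type and from 98.6 and 97.2 to 433 and 463 CPM in TKO cells, with folds that did not pass the test (-0.01 ± 0.08, adjusted p = 0.967) and a gain larger in TKO cells by 130.0 ± 14.5 CPM (adjusted p = 1.52e-06). Hsph1 was lower on both scales (-0.35 ± 0.07, log2; -257 ± 61.4 CPM). Its log2 call was lost without TKO vehicle replicate 2, and its linear call without wild-type inhibitor replicate 2 or TKO inhibitor replicate 1 and under scaling by total counts or upper quartiles (adjusted p up to 0.283).

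The most strongly induced chaperones were not called. Hspa1a, an inducible Hsp70 gene, was at 0.75 and 1.31 CPM in the wild-type vehicle libraries, 1078 and 1374 with the inhibitor, 2.22 and 2.11 in the TKO vehicle libraries and 1143 and 1272 with the inhibitor, and its interaction was -1.07 ± 0.33 (log2, adjusted p = 0.0629) and -19.3 ± 61.5 CPM (adjusted p = 0.898). Its near-identical copy Hspa1b was at -0.34 ± 0.14 (adjusted p = 0.199) and 216 ± 147 CPM. P2rx7, an ATP-gated ion channel, rose to 159.7 and 205 CPM in wild type and 174 and 208 CPM in TKO cells, with -0.84 ± 0.31 on the log2 scale (adjusted p = 0.117). Hspa1a and P2rx7 share exon sequence with Gm20481 and Mir8115. Of 33 proteasome subunits, edgeR called 0 on either scale, with 2 at an unadjusted p under 0.05 on each and 0 by DESeq2. Over all genes 3.89% were called on the log2 scale and 8.32% on the linear scale. Of 35 targets of the oxidative stress factor NRF2, 9 rose and 7 fell in wild type, and 5 rose and 8 fell in TKO cells. Over all genes 19.0% rose and 18.7% fell in wild type, and 19.9% rose and 19.6% fell in TKO cells. The log2 interaction was lower for 3 of the 35, Hmox1 among them, against 2.12% of all genes. On the linear scale 2 were higher and 3 lower, against 5.20% and 3.12%.

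Immediate early genes, which respond to signals without new protein synthesis, split. Of 27 tested, 3 were higher and 5 lower on the log2 scale, against 1.77% and 2.12% of all genes. On the linear scale 6 were higher and 5 lower, against 5.20% and 3.12%. Ccn1, a matricellular target of YAP and of serum response factor, was at 21.4 and 20.1 CPM in the wild-type vehicle libraries, 44.7 and 47 with the inhibitor, 61 and 62.9 in the TKO vehicle libraries and 39 and 39.1 with the inhibitor. It rose in wild type (log2 change 1.14) and fell in TKO cells (-0.67), an interaction of -1.81 ± 0.08 (adjusted p = 5.76e-13) and -47.9 ± 2.4 CPM (adjusted p = 1.78e-12). Its relative Ccn2 was not called in wild type and fell in TKO cells (-0.95 ± 0.10, log2; -23 ± 1.89 CPM). Ccn2 shares exon sequence with Gm15270. Atf3, a stress-induced transcription factor, was at 2.21 and 1.74 CPM in the wild-type vehicle libraries, 23.4 and 23.6 with the inhibitor, 7.37 and 6.8 in the TKO vehicle libraries and 13.4 and 15.7 with the inhibitor, an interaction of -2.55 ± 0.19 (log2, adjusted p = 1.32e-09) and -14.2 ± 1.3 CPM (adjusted p = 1.04e-07). The wild-type inhibitor libraries were the highest of all. Jun, an AP-1 subunit that shares exon sequence with its antisense transcript Junos, went from 4.75 and 4.32 to 48.7 and 62.9 CPM in wild type and from 14.9 and 15.1 to 44.4 and 47.9 CPM in TKO cells (-1.99 ± 0.16, log2; -19.8 ± 2.9 CPM). In the other direction, the MAP kinase phosphatase Dusp1 rose in both lines and the mRNA decay factor Zfp36 rose in TKO cells without a call in wild type. Their interactions were 0.48 ± 0.09 and 0.79 ± 0.13 on the log2 scale and 21.3 ± 2.6 and 8.23 ± 1.35 CPM. Dusp1 shares exon sequence with Ergic1 and Zfp36 with Gm44710.

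Genes of the integrated stress response and unfolded protein response had 41 members tested, of which 17 rose and 8 fell in wild type and 18 rose and 6 fell in TKO cells. The interaction was called for 2 higher and 4 lower on the log2 scale and 2 higher and 7 lower on the linear scale. With the inhibitor, 19.0% of all genes rose and 18.7% fell in wild type, and 19.9% rose and 19.6% fell in TKO cells. The interaction was higher for 1.77% and lower for 2.12% of all genes on the log2 scale, and for 5.20% and 3.12% on the linear scale. Atf4, the central transcription factor of that response, was at 265 and 256 CPM in the wild-type vehicle libraries, 202 and 212 with the inhibitor, 58.8 and 58.3 in the TKO vehicle libraries and 70.8 and 71.9 with the inhibitor. It fell in wild type and rose in TKO cells, an interaction of 0.62 ± 0.07 (log2, adjusted p = 1.31e-06) and 66.3 ± 7.38 CPM. Herpud1, a component of protein degradation at the endoplasmic reticulum, rose in wild type and was not called in TKO cells (-0.89 ± 0.13, log2; -12 ± 1.44 CPM).

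Several core pluripotency genes fell further in TKO cells. Of 26 core pluripotency genes, 16 fell in wild type and 19 in TKO cells, against 18.7% and 19.6% of all genes. On the log2 scale 6 were lower in TKO cells and 0 higher, against 2.12% and 1.77% of all genes. On the linear scale 7 were lower and 2 higher, against 3.12% and 5.20% of all genes. Sox2, a core transcription factor, was at 426 and 454 CPM in the wild-type vehicle libraries, 264 and 263 with the inhibitor, 401 and 405 in the TKO vehicle libraries and 184 and 176 with the inhibitor. The TKO inhibitor libraries were the lowest of all. The log2 changes were -0.74 and -1.16, an interaction of -0.42 ± 0.06 (adjusted p = 2.06e-04). Its linear interaction of -45.9 ± 14.8 CPM did not pass (adjusted p = 0.0547). Tdgf1, the Nodal co-receptor, had -0.40 ± 0.07 on the log2 scale (adjusted p = 7.76e-04) and -16.7 ± 25.7 CPM. Dppa2 and the F-box gene Fbxo15 were lower on both scales, at -0.38 ± 0.07 and -0.52 ± 0.06 (log2) and -50.5 ± 6.86 and -58.8 ± 7.04 CPM. Fbxo15 rose in wild type and fell in TKO cells. Nanog was lower on the log2 scale (-0.27 ± 0.06, adjusted p = 0.014), a call that did not hold without wild-type inhibitor replicate 1 or TKO vehicle replicate 1 (adjusted p up to 0.0862). Pou5f1, which encodes Oct4 and shares exon sequence with Gm19553, was called in neither line, with -0.01 ± 0.07 on the log2 scale. In bulk RNA, fewer cells that express a gene and less of its RNA per cell cannot be told apart. The summed level of the 10 stem cell markers, given above, was lowest in TKO cells with the inhibitor, and 4 of the 10 were called lower on the log2 scale. Its part in these results was not tested.

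Among 24 naive pluripotency genes, 2 were higher and 5 lower on the log2 scale, against 1.77% and 2.12% of all genes. On the linear scale 4 were higher and 6 lower, against 5.20% and 3.12%. Id2, an inhibitor of basic helix-loop-helix factors, was at 18.4 and 21.1 CPM in the wild-type vehicle libraries, 31.5 and 34 with the inhibitor, 73.3 and 78.1 in the TKO vehicle libraries and 56.5 and 59.1 with the inhibitor. It rose in wild type and fell in TKO cells (-1.11 ± 0.09, log2, adjusted p = 2.21e-08; -30.8 ± 2.99 CPM). Klf2 fell in both lines by folds whose difference did not pass (-0.10 ± 0.07, log2, adjusted p = 0.53), from a higher level in TKO cells, with a linear interaction of -49 ± 5.84 CPM (adjusted p = 3.71e-06). Socs3, a feedback inhibitor of LIF signalling, fell less in TKO cells (0.30 ± 0.07, log2; 38 ± 4.97 CPM). Its log2 call was lost without wild-type inhibitor replicate 1, TKO vehicle replicate 1 or 2, or TKO inhibitor replicate 1 (adjusted p up to 0.12).

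Of 32 markers of primitive and visceral endoderm tested, 13 rose and 4 fell in wild type, whereas 4 rose and 10 fell in TKO cells. Beside these counts stand 19.0% and 18.7% of all genes in wild type and 19.9% and 19.6% in TKO cells. On the log2 scale 9 were lower in TKO cells and 0 higher, with a median of -0.31, and on the linear scale 10 were lower and 0 higher. All genes had 2.12% and 3.12% called lower on these scales. The 9 were Col4a1, Col4a2, Hspg2, Lama1, Lamb1, Srgn, Cubn, Dab2 and Lrp2, while the basement membrane genes Lamc1, Nid1 and Nid2 of the same list were called on neither scale. Lama1, a laminin chain, was at 577 and 565 CPM in the wild-type vehicle libraries, 824 and 772 with the inhibitor, 476 and 510.4 in the TKO vehicle libraries and 469 and 468 with the inhibitor. It rose in wild type and was not called in TKO cells, an interaction of -0.56 ± 0.07 (log2, adjusted p = 6.62e-06) and -252 ± 27.3 CPM (adjusted p = 1.09e-06). The wild-type inhibitor libraries were above all others. The type IV collagen chains Col4a1 and Col4a2, which share exon sequence with each other, had -0.55 ± 0.06 and -0.55 ± 0.07 on the log2 scale and -170.3 ± 18.9 and -79.8 ± 8.96 CPM. Col4a1 fell in TKO cells, from 399 and 408 to 350.0 and 342 CPM. Hspg2, the proteoglycan perlecan, had -0.48 ± 0.08 (log2, adjusted p = 3.97e-04) and -337 ± 46.3 CPM. Srgn, a proteoglycan of secretory granules, rose in wild type and fell in TKO cells (-0.67 ± 0.10, log2; -10.9 ± 1.65 CPM). The 6 defining endoderm markers summed to 160 to 181 CPM in wild type with vehicle, 172 to 182 with the inhibitor, 109 to 110.0 in TKO cells with vehicle and 92.8 to 93.8 with the inhibitor. Of these markers 1 was called lower, and the part of such cells in the result was not tested.

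Of 35 trophoblast markers tested, 14 had the larger gain in CPM in TKO cells. In all 11 rose in wild type and 20 in TKO cells, against 19.0% and 19.9% of all genes. The linear scale called 14 higher and 0 lower (5.20% and 3.12% of all genes), while the log2 scale called 1 higher and 3 lower (1.77% and 2.12%), with a median of 0.01. Krt8, a keratin of simple epithelia, went from 56.5 and 52.5 to 76.3 and 69.1 CPM in wild type and from 472 and 449.6 to 612 and 616 CPM in TKO cells. Its partner Krt18 went from 17.9 and 13.7 to 21.8 and 20.6 CPM in wild type and from 260.3 and 246 to 371 and 369 CPM in TKO cells. Their linear interactions were 135 ± 18 and 111 ± 12.1 CPM and their log2 interactions -0.01 ± 0.07 and 0.11 ± 0.10. Krt19 and Krt7 had 39.2 ± 4.65 and 25.2 ± 2.97 CPM, and on the log2 scale 0.10 ± 0.13 and -0.04 ± 0.17. Gata3, a trophoblast transcription factor, rose by the smaller fold in TKO cells (-1.15 ± 0.21, adjusted p = 0.00101), with 3.55 ± 1.21 CPM on the linear scale (adjusted p = 0.0707). The 6 defining trophoblast markers, of which Krt7 gave most of the TKO level, summed to 8.18 to 9.39 CPM in wild type with vehicle and 12.8 to 13.5 with the inhibitor, and to 88.1 to 91.1 and 120 to 129 CPM in TKO cells. Tpbpa among them was at 0 in the 4 wild-type libraries. Of these markers 1 was called lower on the log2 scale. The part of trophoblast-like cells in the linear result was not tested. Keratin genes have processed pseudogenes, Krt8 shares exon sequence with Gm36026, Krt7 with Gm671 and Gata3 with 9230102O04Rik and Gm13256.

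**Figure D4:**
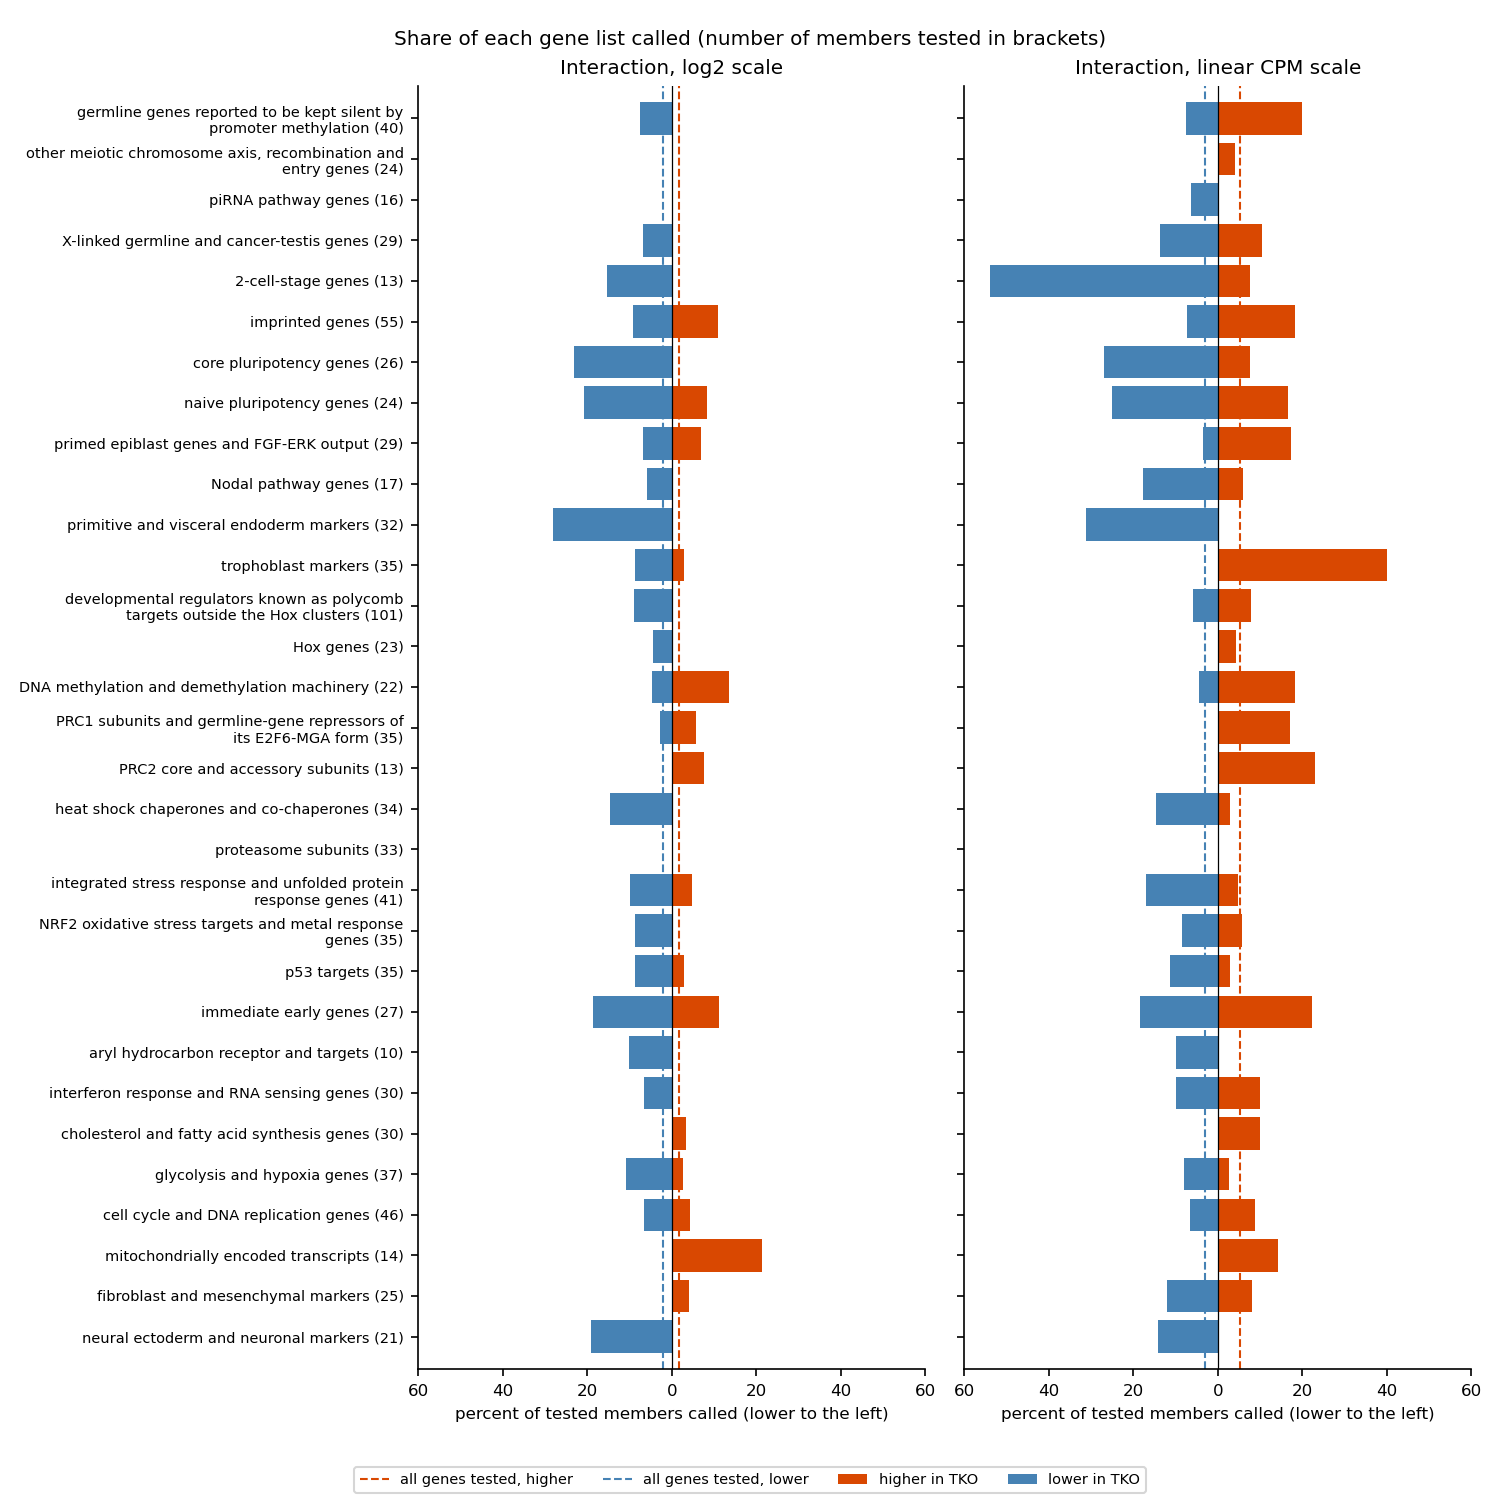
For each of 31 gene lists, bars give the percent of tested members called higher (orange, to the right) or lower (blue, to the left) in TKO cells, on the log2 scale in the left panel and the linear CPM scale in the right panel. Dashed lines mark the share over all 16711 genes. The trophoblast bar is long on the linear scale alone, and the endoderm bar points to lower on both scales.

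Of 101 developmental regulators known as polycomb targets outside the Hox clusters, 46 rose and 2 fell in wild type, and 38 rose and 10 fell in TKO cells, against 19.0% and 18.7% and 19.9% and 19.6% of all genes. On the log2 scale 9 were lower in TKO cells and 0 higher, with a median of -0.38, and DESeq2 called 4. On the linear scale 8 were higher and 6 lower, with a median of -0.0156 CPM. Together the 101 summed to only 243 and 262 CPM in wild type with vehicle. Some of the wild-type folds behind the log2 median therefore rest on few counts. The shares of all genes called higher and lower were 1.77% and 2.12% on the log2 scale and 5.20% and 3.12% on the linear scale. Pax6, a neural and eye regulator, was at 0.572 and 0.871 CPM in the wild-type vehicle libraries, 1.31 and 1.63 with the inhibitor, 30.6 and 31.3 in the TKO vehicle libraries and 24.3 and 21.4 with the inhibitor. It rose in wild type from a level far below that of TKO cells, where it fell, with -1.41 ± 0.28 on the log2 scale (adjusted p = 0.00307) and -8.77 ± 1.57 CPM (adjusted p = 6.70e-04). Ebf3, a neuronal transcription factor that shares exon sequence with Gm45278, went from 0.179 and 0.0933 to 2.62 and 2.65 CPM in wild type and from 0.909 and 1.54 to 3.73 and 3.08 CPM in TKO cells, which gave -2.79 ± 0.61 on the log2 scale and -0.316 ± 0.454 CPM. Irx5 was higher on the linear scale only, at 5.85 ± 0.68 CPM against -0.88 ± 0.50 on the log2 scale. Of 23 Hox genes, Hoxd13 was called lower on the log2 scale and Hoxd10 higher on the linear scale. Zic2, a zinc finger gene of the primed epiblast, rose in wild type from 2.79 and 3.33 to 7.16 and 9.17 CPM and was at 62.7 and 62 and then 62.3 and 62.1 CPM in TKO cells (-1.39 ± 0.15, log2, adjusted p = 1.09e-06). Among 21 neural markers 4 were lower on the log2 scale, 3 of them among the 4 defining markers measured. Those 4 summed to 71.4 to 75.2 and 79.6 to 80.3 CPM in wild type, and to 171 to 176 and 137 to 148 CPM in TKO cells. Tubb3 gave most of each sum, at 129 and 135 CPM in TKO cells with vehicle and 109 and 102 with the inhibitor. In TKO cells Tubb3 and Pax6 fell, Neurod1 rose (from 3.43 and 2.81 to 5.2 and 5.72 CPM) and Map2 was not called. The part of such cells in these values was not tested. Stmn2, a neuronal microtubule regulator, was lower on the linear scale, at -52.2 ± 7.37 CPM.

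The PRC1 ligases Ring1 and Rnf2 were called on neither scale, at -0.01 ± 0.14 and -0.01 ± 0.06 (log2), and neither was called with the inhibitor in either line. Rnf2 shares exon sequence with Trmt1l. Of 35 PRC1 subunits and partners, 2 were higher (Cbx6 and Usp7) and 1 lower (Scml2, given above) on the log2 scale, and 6 were higher and 0 lower on the linear scale. Over all genes the shares were 1.77% and 2.12%, and 5.20% and 3.12%. The chromobox gene Cbx6, which shares exon sequence with Npcd, had 0.34 ± 0.07 (log2), a call that did not hold without wild-type inhibitor replicate 2, TKO vehicle replicate 2 or TKO inhibitor replicate 1 (adjusted p up to 0.105), and 22.8 ± 3.44 CPM. The polycomb ring finger gene Bmi1 was called on the linear scale only, with 0.08 ± 0.11 (log2) and 16.3 ± 1.99 CPM. Of 22 genes of DNA methylation and demethylation, 3 were higher and 1 lower on the log2 scale, and 4 were higher and 1 lower on the linear scale. The fourth higher gene, Dnmt3a, lost its linear call without any 1 library other than wild-type vehicle replicate 2, and with upper-quartile scaling, no filter, the stricter filter or the replicate block (adjusted p up to 0.171). Dnmt1 went from 424 and 434 to 392 and 373 CPM in wild type and from 128 and 128 to 143 and 158 CPM in TKO cells, a fall in wild type and a rise in TKO cells (0.40 ± 0.07, log2, adjusted p = 8.66e-04; 69.6 ± 14.2 CPM). Dnmt3b did likewise, at 0.51 ± 0.08 (adjusted p = 3.51e-04) and 43.9 ± 6.48 CPM. In TKO cells both are transcripts of knocked-out genes. Usp7, a deubiquitinase known to bind Dnmt1 and a non-canonical PRC1, fell in wild type and was not called in TKO cells (0.29 ± 0.06, log2; 103 ± 21.9 CPM), with an adjusted p of 0.0659 on the log2 scale without TKO vehicle replicate 1. Tet2, a methylcytosine dioxygenase that shares exon sequence with Gm42567, was lower at -0.27 ± 0.07 (log2) and -32.7 ± 8.77 CPM. Its linear call was not made by limma on linear CPM. Both Tet2 calls were lost without wild-type inhibitor replicate 2, TKO vehicle replicate 1 or 2, or TKO inhibitor replicate 2, and the log2 call also without TKO inhibitor replicate 1 (adjusted p up to 0.155 and 0.178).

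Some of the largest log2 differences lay outside these lists. Myh14, a nonmuscle myosin heavy chain, was at 8.75 and 8.21 CPM in the wild-type vehicle libraries, 9.47 and 9.58 with the inhibitor, 16.9 and 15 in the TKO vehicle libraries and 77.1 and 84.5 with the inhibitor. It was not called in wild type and rose in TKO cells, an interaction of 2.17 ± 0.12 (adjusted p = 2.56e-11) and 63.7 ± 2.44 CPM (adjusted p = 1.22e-14). Scn8a, a sodium channel, went from 4.14 and 3.17 to 4.74 and 4.85 CPM in wild type and from 2.42 and 1.91 to 10.9 and 12.8 CPM in TKO cells, with 2.05 ± 0.23 (log2) and 8.49 ± 0.838 CPM. Kcnj14, a potassium channel, rose in both lines and more in TKO cells (1.74 ± 0.29, log2; 7.69 ± 0.755 CPM). Cited4, a transcriptional co-regulator, and Tnfaip2, a gene induced by tumour necrosis factor, fell in wild type and rose in TKO cells, at 1.66 ± 0.21 and 1.51 ± 0.19 on the log2 scale. Myh14 shares exon sequence with 2310016G11Rik and Tnfaip2 with Gm40578. In the other direction, Aldh1a2, which makes retinoic acid, went from 0.464 and 0.622 to 6.85 and 7.22 CPM in wild type and from 3.8 and 3.62 to 9.2 and 8.95 CPM in TKO cells. The fold was smaller in TKO cells (-2.38 ± 0.28, log2, adjusted p = 1.72e-06), and the difference in gains did not pass the test (-1.09 ± 0.701 CPM, adjusted p = 0.392). Hdc, which makes histamine, had the same form (-2.98 ± 0.44, log2; -0.76 ± 0.555 CPM). Adra2a, an adrenergic receptor, had -2.19 ± 0.59 (log2) and -4.94 ± 1 CPM. Its log2 call was lost without the second vehicle library of either line and its linear call without TKO inhibitor replicate 1 (adjusted p up to 0.185 and 0.0537).

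Abundant genes gave large differences in CPM. Noct, the circadian gene nocturnin, was at 495 and 499 CPM in the wild-type vehicle libraries, 433 and 419.6 with the inhibitor, 1926 and 1847 in the TKO vehicle libraries and 2369 and 2482 with the inhibitor. It fell in wild type and rose in TKO cells, by 609 ± 69.2 CPM (adjusted p = 2.05e-06) and 0.58 ± 0.06 on the log2 scale. Ccnf, an F-box cyclin that shares exon sequence with Mir5134, started at like levels in the lines and rose more in TKO cells, by 144 ± 14.6 CPM and 0.56 ± 0.06 on the log2 scale. Slc38a6, an amino acid transporter, was not called in wild type and rose in TKO cells (279 ± 35.1 CPM; 0.32 ± 0.07, log2), with a log2 adjusted p of 0.0709 without TKO vehicle replicate 2. Inhbb, the beta B subunit of activin, fell in both lines, from 363 and 361 to 197 and 199.5 CPM in wild type and from 51 and 44.2 to 30.8 and 29.1 CPM in TKO cells. The difference in folds did not pass (0.20 ± 0.08, adjusted p = 0.159), whereas the linear interaction was 146 ± 9.97 CPM (adjusted p = 6.30e-10), a positive value that came from the larger loss in wild type. Lars2, the mitochondrial leucyl-tRNA synthetase, rose more in wild type (-1.04 ± 0.09, log2; -165 ± 19.1 CPM), and Tpt1, an abundant growth-related protein with processed pseudogenes, rose in wild type and was not called in TKO cells (-0.27 ± 0.06, log2; -330.0 ± 71.7 CPM). The log2 call of Tpt1 was lost without either TKO vehicle library or TKO inhibitor replicate 2 (adjusted p up to 0.0905). Of 14 mitochondrially encoded transcripts, 11 fell in wild type and 9 in TKO cells, against 18.7% and 19.6% of all genes. Together they summed to 26063 and 35113 CPM in the wild-type vehicle libraries and 20576 and 20554 with the inhibitor. In TKO cells the sums were 32707 and 32453 CPM with vehicle and 24790 and 27000 with the inhibitor. The wild-type falls and the interactions therefore start from 2 vehicle libraries that lay far apart. On the log2 scale, where 1.77% of all genes were higher, 3 of the 14 were higher in TKO cells (mt-Co2, mt-Atp6 and mt-Co3). DESeq2 called the former 2, and the mt-Co3 call was lost there, with the stricter filter and without any 1 library other than wild-type vehicle replicate 1 (adjusted p up to 0.214). The cytochrome oxidase subunit mt-Co2 went from 3491 and 3982 to 2083 and 2112 CPM in wild type and from 3708 and 3656 to 2678 and 2805 CPM in TKO cells (0.41 ± 0.07, log2; 699 ± 162 CPM), and its linear adjusted p was 0.0791 without TKO vehicle replicate 2.

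The remaining lists are given as counts, to be read against the 1.77% higher and 2.12% lower of all genes on the log2 scale and the 5.20% and 3.12% on the linear scale. Of 17 genes of Nodal signalling, 1 was lower on the log2 scale, and 1 was higher and 3 were lower on the linear scale. Among 29 genes of the primed epiblast, Dnmt3b and the signalling inhibitor Spry4 were higher and Zic2 and Zic5 lower on the log2 scale, and 5 were higher and 1 lower on the linear scale. Of 35 p53 targets, Tigar was higher and Ccng1, Eda2r and Plk2 were lower on the log2 scale, and 1 was higher and 4 lower on the linear scale. Of 37 genes of glycolysis and hypoxia, Pfkfb4 was higher and P4ha1, P4ha2, Pfkp and Slc16a3 were lower on the log2 scale. P4ha1 and P4ha2 are collagen prolyl hydroxylases, and they were lower on the linear scale too, where the list had 1 higher and 3 lower calls. Of 30 interferon-response genes, H2-K1 and Ifitm1 were lower on the log2 scale, and 3 were higher and 3 lower on the linear scale. Of 30 cholesterol synthesis genes, Msmo1 was higher on the log2 scale, and 3 were higher on the linear scale. Of 46 cell cycle genes, Ccne1 and E2f2 were higher and Aurka, Cdk1 and Cenpe lower on the log2 scale, and 4 were higher and 3 lower on the linear scale. Of 13 PRC2 genes the histone-binding subunit Rbbp7 was higher on the log2 scale, and 3 were higher on the linear scale. The log2 call of Rbbp7, which shares exon sequence with Txlng, was lost without wild-type inhibitor replicate 2, either TKO vehicle library or TKO inhibitor replicate 1 (adjusted p up to 0.12). Of 10 genes of the aryl hydrocarbon receptor pathway, the receptor gene Ahr was lower on the log2 scale and Cyp1b1 on the linear scale. Of 25 fibroblast genes Loxl1 was higher on the log2 scale, and on the linear scale 2 were higher and 3 lower. The members of these lists that are named here without values were named after their values were seen.

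The sign of the log2 calls varied with the starting level of the lines as measured in the second experiment, where 4147 of 15878 shared genes were higher in TKO cells (26.1%) and 3919 lower (24.7%). Of the 1271 genes at least 4-fold higher in TKO cells there, 0.393% were called higher and 6.92% lower on the log2 interaction, with a median of -0.41. Of the 304 genes at least 4-fold lower, 5.59% were called higher and 0.658% lower, with a median of 0.15. Among the 11986 genes within 2-fold the shares were 1.77% and 1.45%. On the linear scale the pattern was not the mirror image. Of the genes at least 4-fold higher, 8.26% were called higher and 7.79% lower, and of those at least 4-fold lower, 12.8% and 4.61%. Read the other way, 62.8% of the 347 lower log2 calls measured there were higher in TKO cells and 14.4% were lower. Of the 293 higher log2 calls, 18.4% were higher and 38.2% were lower. Zic2, Pax6 and Ebf3 belonged to the first kind, with log2 differences of 4.06, 6.51 and 1.96 in the second experiment. Inhbb, Atf4 and Socs3, higher in the interaction on at least 1 scale, were at -3.56, -1.96 and -1.26 there. Other genes of the interaction were not called there, such as Myh14 at 0.30 and Dnajb1 at 0.19, although both were higher in the TKO than in the wild-type vehicle libraries of the first experiment. These shares describe genes that share libraries within each experiment, and no test was made of them.

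**Figure D5:**
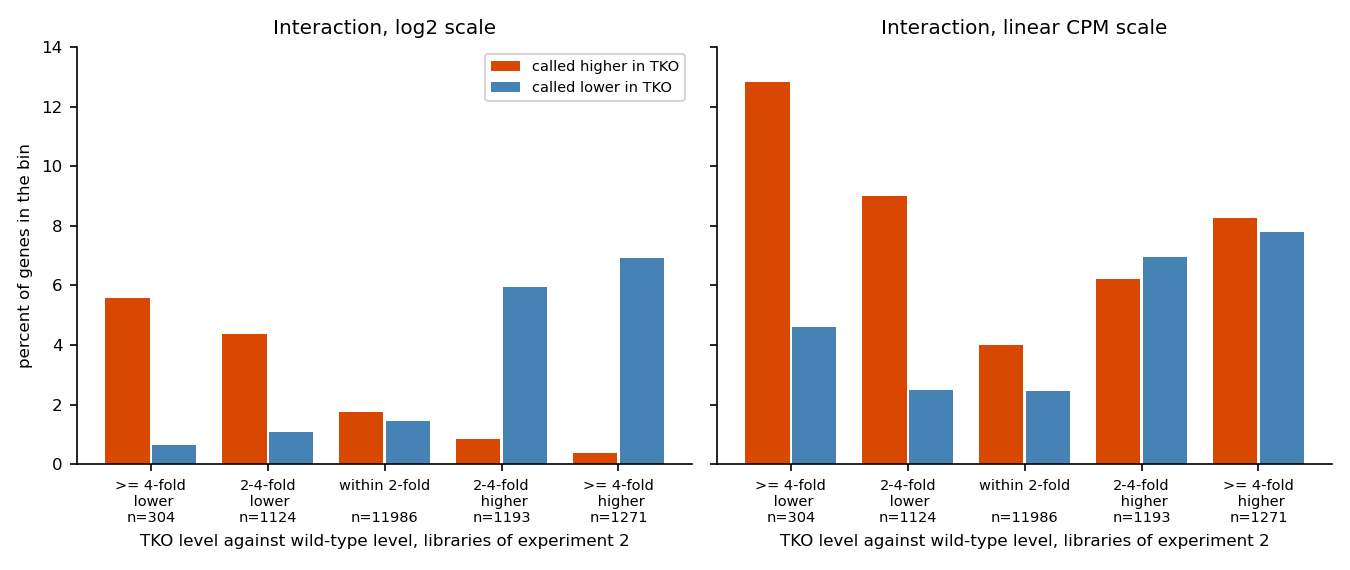
Percent of genes called higher (orange) or lower (blue) in the interaction on the log2 scale (left) and the linear CPM scale (right), for 5 bins of the TKO level against the wild-type level in the second experiment. On the log2 scale lower calls rise from 0.658% to 6.92% from the left bin to the right bin, while higher calls fall from 5.59% to 0.393%.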

How the data were processed

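RNA-seq of mouse embryonic stem cells (poly(A) selected, NEBNext Ultra, per the labels' protocols) was available as read counts per Ensembl gene. The submitters' processing notes name TopHat2 2.0.2 with Bowtie 0.12.8, HTSeq 0.5.3p9 and the mm9 build. Neither the annotation release nor the strand setting was given in the sources used here. The authors deposited raw counts with no normalization, for 37991 gene IDs in each table. Symbols, chromosomes and exon overlap came from GENCODE vM21 (32938 IDs matched), and promoter sequences from RefSeq GRCm38.p6.

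The 8 libraries were fitted together with edgeR 4.0.16 (R 4.3.3): filterByExpr with a minimum count of 10, TMM scaling, a mean for each group, the quasi-likelihood test and Benjamini-Hochberg adjustment over 16711 genes. The linear interaction combined the fitted CPM of the 4 groups, with a delta-method standard error from the same fit, and a group at 0 was given the spread of 1 count. With 4 residual degrees of freedom and a biological coefficient of variation of 3.73%, precision rests on a spread shared across genes. The 6 libraries of the second experiment (23354015 to 41844823 counts, coefficient of variation 10.5%) were fitted in the same way. Replicates of a group differed by more than sampling noise, so none was counted as a duplicate. The scripts were tested on simulated counts. Alternatives were other scalings and filters, a replicate block, DESeq2 1.42.0, limma 3.58.1 on linear CPM, and leaving out each library.

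Comparisons, members and gene lists were chosen with earlier results of these data known. Named genes were fixed anchors, up to 4 called members per list, direction and scale, the 10 largest changes per direction and scale, and up to 10 genes with opposite signs on the scales; exceptions are stated where they occur. Some genes that the rule covers are not reported here.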

Additional observations from a re-analysis of the deposited data

Results flagged for a closer look

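Among the named genes with at least 10 counts in every group, 15 changed in opposite directions in the lines, each change passing edgeR's test, and also passed the interaction test. With 2 libraries per group, no test for a sample far from the others was possible. In 8 the gene fell in wild type and rose in TKO cells. The log2 interactions were 1.66 for Cited4, 1.51 for Tnfaip2, 0.67 for Peg10, 0.62 for Atf4, 0.58 for Noct, 0.51 for Dnmt3b, 0.43 for Cdkn1c and 0.40 for Dnmt1. In the other 7 the gene rose in wild type and fell in TKO cells. The log2 interactions were -1.81 for Ccn1, -1.41 for Pax6, -1.11 for Id2, -0.67 for Srgn, -0.55 for Col4a1, -0.52 for Fbxo15 and -0.27 for Tet2. The interaction of Tet2 was the smallest of the 15, with log2 changes of 0.13 in wild type and -0.14 in TKO cells. Those in Ccn1 were 1.14 and -0.67, and those in Tnfaip2 -0.64 and 0.87.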

How the results depend on the processing

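No call among the named genes reversed its direction under the alternatives run, whereas some values that were not called crossed 0, such as the linear interaction of Bag3 (-2.92 to 10.5 CPM) and the log2 interaction of Krt18 (-0.09 to 0.30). Of the 69 log2 and 76 linear calls among the named genes, the 3 other scalings kept 69 on the log2 scale, and at least 74 on the linear scale. Without a filter 69 and 75 were kept. DESeq2 kept 64 of the 69 log2 calls, and limma on linear CPM 73 of the 76 linear calls. Leaving out 1 library kept 55 to 66 log2 calls and 65 to 76 linear calls. Over all genes DESeq2 called 197 higher and 218 lower on the log2 scale, against 295 and 355 with edgeR, and shared 400 of the 650 calls. The cause was not tested. Genes higher on the log2 scale but lower on the linear scale numbered 0 in the fit reported, 1 without a filter and 1 with the replicate block.

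Leaving out each library in turn gave 118 to 421 genes higher and 186 to 492 lower on the log2 scale, 421 to 927 higher and 252 to 730 lower on the linear scale, 4 to 14 lower on the log2 and higher on the linear scale, and 0 to 1 of the reverse kind. It gave 2501 to 3024 genes that rose and 2107 to 3170 that fell in wild type, 2209 to 3734 and 2502 to 3471 in TKO cells, and 3343 to 4302 higher and 2737 to 3988 lower in TKO cells of the second experiment. A group left with 1 library was assumed to vary like the others, which the replicates did not do. The 2 wild-type vehicle libraries differed most, with a chi-square per degree of freedom of 9.08 relative to sampling noise. It was 3.16 in wild type with the inhibitor, 1.81 in TKO cells with vehicle and 3.48 in TKO cells with the inhibitor. The effect of this on the counts was not tested. Each such fit has fewer libraries and tested another number of genes.

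The replicate numbers did not pair the samples: deviations of same-numbered libraries correlated between -0.03 and 0.04 over the 6 pairs of groups. With the replicate block, 285 and 347 genes were higher and lower on the log2 scale and 834 and 500 on the linear scale. The median log2 interaction of all genes stayed between -0.03 and -0.0015 in all settings. Low depth limits genes near the filter, and 38 linear and 4 log2 calls had a group at 0 counts.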
